A study of Mus musculus with 12 samples.

Results

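The genes described here code for the channels and pumps of the intracellular calcium store and for the sensors and the pore that refill it from outside the cell. They were chosen by name as 10 genes, Ryr2, Ryr3, Itpr1, Itpr2, Itpr3, Atp2a2, Atp2a3, Stim1, Stim2 and Orai1, and 9 of the 10 were measured among the 18193 genes of the table. Itpr1 was not analysed here. Messenger RNA was read on 12 Affymetrix mouse arrays. CD1 mice gave cells of a sympathetic ganglion, the superior cervical ganglion (SCG), which had been grown either in 3D polystyrene scaffolds or in 2D on a polystyrene Petri dish, and freshly dissected SCG tissue stood for the state in the animal. Each of these 3 groups had 4 biological replicates, none carried a transgene or a drug treatment, and both cultures were kept in medium with nerve growth factor. The labels give an age of 21 days for all groups, whereas the methods name neonatal mice, and the methods name glass bottom dishes for the 2D cultures. A level is the authors' log2 value (RMA) of a probe set, a group of short probes against one transcript. A difference of 1 on this scale is a 2-fold change. A gene with several probe sets was read from its brightest one, by the mean of all 12 arrays.

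In neurons the endoplasmic reticulum holds calcium that is released through ryanodine receptors, which open when calcium rises in the cytoplasm, and through IP3 receptors, which open when phospholipase C makes inositol trisphosphate (IP3). Pumps of the SERCA type carry the calcium back. When the store runs low, STIM proteins in its membrane sense the loss and open Orai channels in the plasma membrane. Sympathetic neurons are a classical preparation for store release, since calcium that enters through voltage gated channels can open their ryanodine receptors.

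Most of these genes differed between 3D cultured SCG cells and freshly dissected tissue, fewer passed the test in 2D cultures against tissue, and none of the 9 passed between 3D and 2D. Atp2a2 and Stim2 were higher and Atp2a3 was lower in both 3D and 2D cultures than in tissue. Stim1 and Orai1 were higher, and Ryr2 was lower, in 3D cultures than in tissue by the same test. In limma, with p-values adjusted over all 45037 probe sets and a threshold of 0.05, 6 of the 9 genes passed in 3D against tissue, 4 higher and 2 lower, where 35.6% of all genes did (20.1% higher and 15.5% lower). In 2D against tissue 3 of the 9 passed, 2 higher and 1 lower, where 24.1% of all genes did (14.3% higher and 9.87% lower). Between 3D and 2D 0 of the 9 passed, where 0.0165% of all genes did. At an unadjusted p under 0.05 the last comparison gave 1 gene in limma, Stim2, and the same gene in the methods' t-test, where limma gave 13.1% of all genes. The comparisons with tissue gave 6 (3D) and 7 (2D) of the 9 genes at that level, where 47.7% and 40.9% of all genes reached it. By the arrays alone, 4 genes lay above and 1 below every tissue array in 3D, where 42.4% of all genes did not overlap (24.1% above and 18.3% below). In 2D 2 lay above and 1 below, where 33.8% of all genes did not overlap (18.5% above and 15.3% below). The median log2 difference of the 9 genes was 0.28 in 3D against tissue, 0.20 in 2D against tissue and 0.09 in 3D against 2D, beside medians of -0.03, -0.03 and 0.01 over all genes. Both cultures were set against the same tissue arrays, so the first comparisons are not independent of each other.

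**Figure D1:**
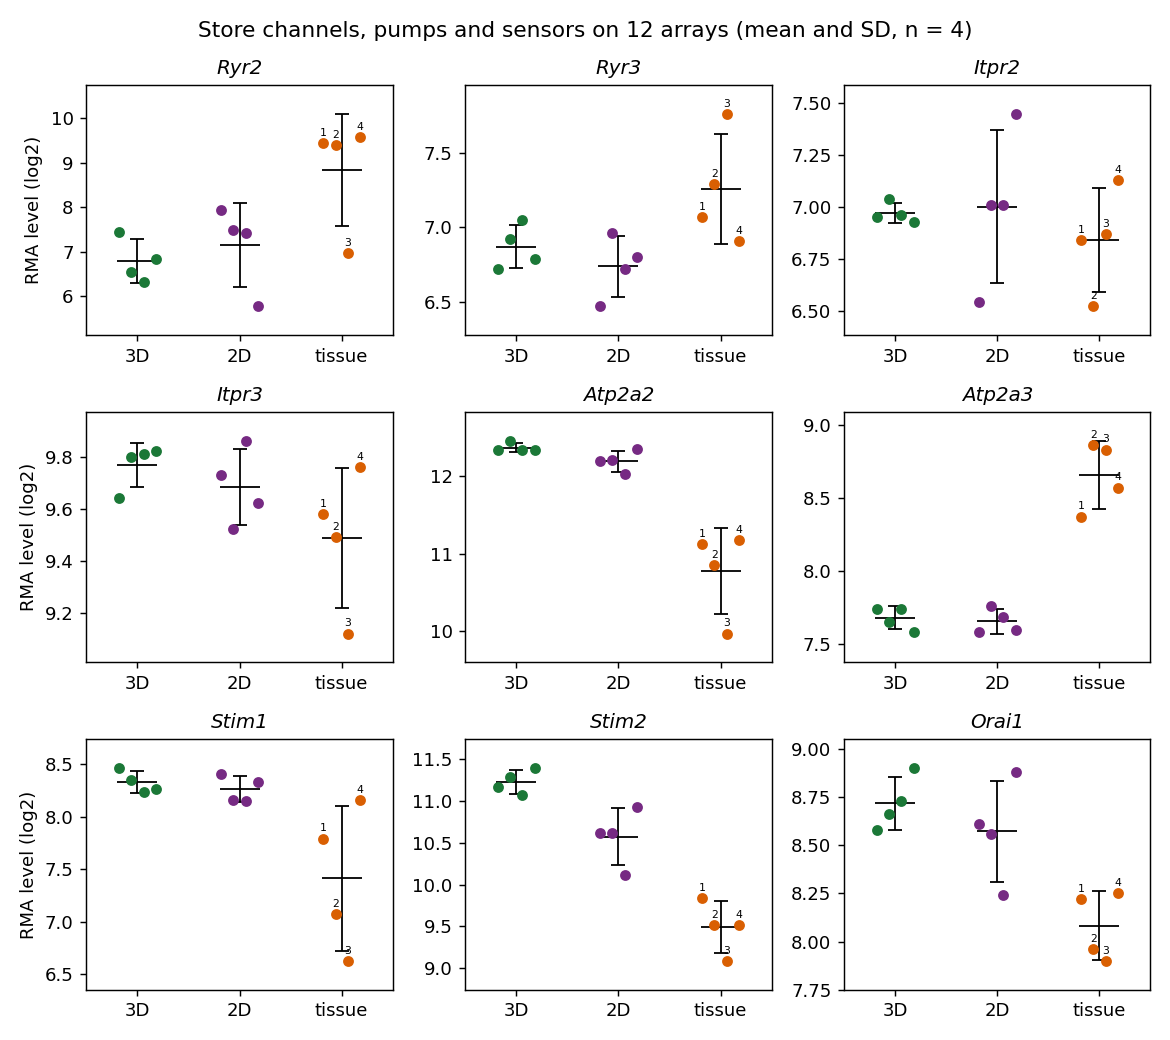
RMA level (log2, vertical axis) of the 9 measured genes by group (horizontal axis, 3D and 2D cultures and SCG tissue). Points are arrays, long bars are means and error bars are SD (n = 4), and numbers mark tissue replicates. Atp2a2, Stim2 and Atp2a3 show no overlap between the 8 culture arrays and the 4 tissue arrays, and the Ryr2 level of tissue replicate 3 lies among the cultures.

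Several features of the arrays bear on these values. The values of tissue replicates 2 and 3 were drawn together, with an SD over all probe sets of 2.14 and 1.93 where the other 10 arrays had 2.31 to 2.42. Their 4406 brightest probe sets had a median of 10.72 and 10.16, against 10.99 to 11.15 on the others, and their 11764 dimmest had 4.40 and 4.69, against 4.04 to 4.19. Sympathetic neuron markers, led by Npy and Slc6a2, averaged 9.74 to 10.65 in 3D, 9.60 to 11.33 in 2D and 11.07 to 12.52 in tissue. Of the 13 measured, 10 were lower in 3D and 5 lower in 2D than in tissue, where 15.5% and 9.87% of all genes were. Of 15 markers of neurons in general (pan-neuronal), 7 were lower in 3D and 2 in 2D. Markers of dividing cells, led by Mki67, averaged 9.30 to 9.87 in 3D, 9.13 to 9.79 in 2D and 5.46 to 6.02 in tissue. All 8 measured were higher in both cultures, where 20.1% of all genes were higher in 3D and 14.3% in 2D. Markers of skeletal muscle averaged 5.32 to 5.64 on the culture arrays and 5.59, 8.52, 7.14 and 8.90 on tissue replicates 1 to 4. In such bulk RNA fewer cells of a type and less RNA in each cell cannot be told apart, and RMA values carry no detection call. Between 3D and 2D, 0 of 101 marker genes passed in limma, where 18 did at an unadjusted p under 0.05. Of all genes, 0.0165% passed and 13.1% reached the unadjusted level.

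Promoter sequences are shown for 2 genes that were higher and 2 that were lower in 3D cultures than in tissue, because genes that move together can be compared at their starts. RefSeq (build GRCm38.p6) gave the 250 bases before the start of 7 of the 10 genes. Capitals mark matches, on either strand, to a GC box (letters GGGCGG), to a CCAAT box (the letters of its name) or to a cyclic AMP response element (letters TGACGTCA). The sequences are written 5′ to 3′ on the strand of the gene.
Stim2, chr5:53998273-53998522, plus strand: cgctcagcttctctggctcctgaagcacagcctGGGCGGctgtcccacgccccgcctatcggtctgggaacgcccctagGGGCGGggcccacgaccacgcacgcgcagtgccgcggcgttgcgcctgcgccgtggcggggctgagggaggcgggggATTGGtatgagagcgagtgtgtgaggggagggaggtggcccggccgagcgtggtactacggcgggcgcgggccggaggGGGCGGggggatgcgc
Orai1, chr5:123014824-123015073, plus strand: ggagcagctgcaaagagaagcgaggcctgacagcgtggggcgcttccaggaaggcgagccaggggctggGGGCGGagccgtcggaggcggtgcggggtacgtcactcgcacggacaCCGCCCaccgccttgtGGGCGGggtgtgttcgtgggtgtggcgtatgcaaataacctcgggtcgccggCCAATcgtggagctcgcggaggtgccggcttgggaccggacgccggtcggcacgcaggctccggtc
Atp2a3, chr11:72960919-72961168, plus strand: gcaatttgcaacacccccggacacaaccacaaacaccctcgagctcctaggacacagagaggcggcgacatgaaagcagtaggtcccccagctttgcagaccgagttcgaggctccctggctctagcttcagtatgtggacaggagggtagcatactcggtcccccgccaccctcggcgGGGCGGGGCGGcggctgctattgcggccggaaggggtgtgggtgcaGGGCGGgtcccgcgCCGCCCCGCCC
Ryr2, chr13:12106946-12107195, minus strand: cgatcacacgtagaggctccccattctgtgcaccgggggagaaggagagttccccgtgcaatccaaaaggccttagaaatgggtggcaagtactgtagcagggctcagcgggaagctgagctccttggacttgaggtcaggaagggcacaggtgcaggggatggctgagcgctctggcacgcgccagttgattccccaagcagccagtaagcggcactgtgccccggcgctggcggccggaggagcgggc
The windows of Stim2 and Orai1 each held 3 GC boxes and 1 CCAAT box. That of Atp2a3 held 5 GC boxes, with 2 overlapping pairs among them, and 0 CCAAT boxes, and that of Ryr2 held 0 of either. The windows of Stim1, Itpr2 and Itpr3, not printed, held 8, 4 and 1 GC boxes and 0, 2 and 0 CCAAT boxes. The response element was in 0 of the 7 windows. Of 32851 promoter windows of this length, 32.7% held a GC box, 33.8% a CCAAT box and 1.55% the response element. The 4 printed windows were rich in G and C, from 63.2% in Ryr2 to 74.8% in Stim2, where the median over all promoters was 52.4%. So were those not printed, with 78.4% in Stim1 and, for genes that did not pass, 74.4% in Itpr2 and 72% in Itpr3. A match describes the letters and is not a measured site.

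Among the release channels, Ryr2, the ryanodine receptor of heart muscle and the main form of the brain, was lower in 3D cultures than in tissue. Its level was 7.45, 6.54, 6.32 and 6.84 in 3D cultures, 7.93, 7.49, 7.42 and 5.77 in 2D cultures and 9.43, 9.40, 6.96 and 9.57 in SCG tissue. Tissue replicates 1, 2 and 4 stood above all 8 culture arrays, whereas tissue replicate 3 lay inside their range. The mean level was 6.79 ± 0.49 in 3D, 7.15 ± 0.95 in 2D and 8.84 ± 1.26 in tissue (SD, n = 4 each). In 3D against tissue the log2 difference was -2.05 (standard error 0.56, adjusted p = 0.0223 from limma), a level 4.15-fold lower. In 2D against tissue it was -1.69 (standard error 0.65, adjusted p = 0.0898), which did not pass. A second, dim Ryr2 probe set differed by -0.19 in 3D (adjusted p = 0.281) and -0.15 in 2D (adjusted p = 0.375). The result leaned on single arrays and on the brighter probe set. Leaving out 3D replicate 2, 3 or 4 or tissue replicate 2 took the first call away (adjusted p = 0.0619, 0.0644, 0.0545 and 0.0691), and leaving out tissue replicate 3 brought the second one, with a log2 difference of -2.31 (adjusted p = 0.0118). Without tissue replicate 3 the difference in 3D was -2.68 (adjusted p = 1.33e-04), and with the mean of both probe sets it was -1.12 (adjusted p = 0.0202).

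Ryr2 also went with the neuronal genes of each array. The 15 pan-neuronal markers averaged 11.38, 10.75, 10.66 and 10.78 on the 3D arrays, 11.72, 11.46, 11.38 and 10.19 on the 2D arrays and 12.21, 11.75, 10.74 and 12.38 on the tissue arrays. The array with the lowest average in 2D (replicate 4) and the one in tissue (replicate 3) were also the ones with the lowest Ryr2 of their group. Tissue replicate 3, whose values were drawn together, was not low for neuronal markers alone. It was also the lowest tissue array for satellite glia and Schwann (10.52), fibroblast (10.07) and endothelial markers (7.14). For macrophage and skeletal muscle markers it was not the lowest. Relative to the pan-neuronal average on the same array, Ryr2 lay at -4.34 to -3.93 in 3D, -4.42 to -3.79 in 2D and -3.78 to -2.35 in tissue. Tissue thus stayed above both cultures by a narrow margin. The differences were -1.18 in 3D against tissue and -1.11 in 2D against tissue (exact two-sided permutation p = 0.0286 each, the smallest that 4 arrays against 4 can give, and 0.0857 after adjustment over 6 such comparisons). Relative to the sympathetic markers, the groups overlapped, at -3.42 to -3.11 in 3D, -3.83 to -3.40 in 2D and -4.11 to -2.45 in tissue. Those differences were -0.19 and -0.54 (exact permutation p = 0.657 and 0.171, adjusted 0.771 and 0.257). Both relative levels were chosen after the values had been seen, and the part of neuron content in the Ryr2 result was not tested further.

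**Figure D2:**
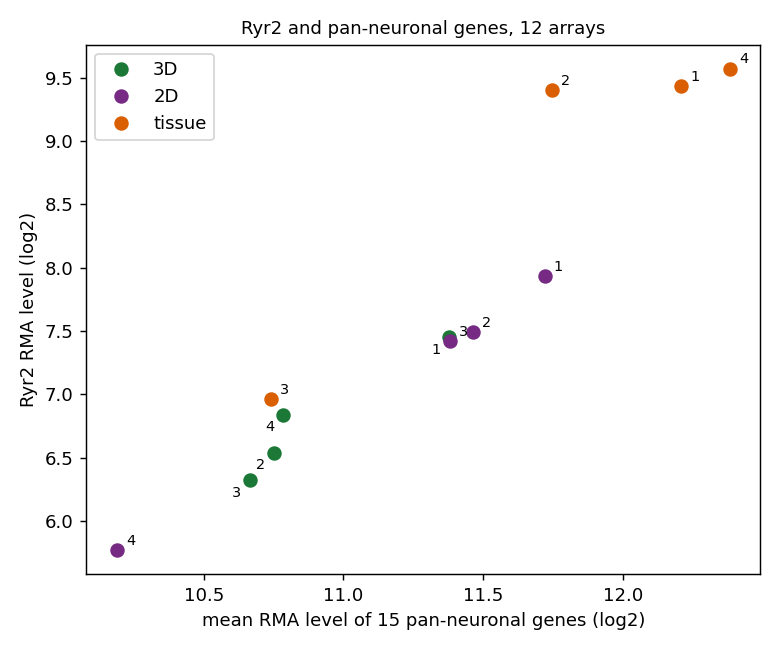
RMA level of Ryr2 (log2, vertical axis) against the mean level of 15 pan-neuronal genes (log2, horizontal axis) on 12 arrays, with replicate numbers. Tissue replicates 1, 2 and 4 lie at the top right with Ryr2 at 9.40 to 9.57, tissue replicate 3 lies among the 3D arrays, and 2D replicate 4 has the lowest value on both axes.

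The other ryanodine receptor, Ryr3, a form found at low abundance in many tissues, had levels of 6.72 to 7.05 in 3D, 6.47 to 6.96 in 2D and 6.91 to 7.76 in tissue. The groups overlapped, with log2 differences of -0.39 in 3D against tissue (adjusted p = 0.146) and -0.52 in 2D against tissue (adjusted p = 0.0992). A dimmer Ryr3 probe set passed in 3D against tissue with -0.63 (adjusted p = 0.0310). All Ryr3 probe sets were lower in both cultures. With their mean Ryr3 passed in 3D (-0.47, adjusted p = 0.00798) and in 2D (-0.40, adjusted p = 0.0430). Neither measured IP3 receptor passed the test in either culture. Itpr2, a receptor found in many tissues, ranged over 6.93 to 7.04 in 3D, 6.54 to 7.45 in 2D and 6.52 to 7.13 in tissue, with differences of 0.13 and 0.16 and 95% confidence intervals of -0.21 to 0.47 for 3D minus tissue and -0.33 to 0.65 for 2D minus tissue. Itpr3, known from secretory and sensory cells, averaged 9.77 ± 0.09 in 3D, 9.68 ± 0.15 in 2D and 9.49 ± 0.27 in tissue (SD, n = 4 each), with intervals of -0.07 to 0.63 and -0.19 to 0.58. A change of 2-fold lay outside these intervals for both receptors. The sign was not settled, since Itpr2 differed by -0.15 in 3D with arrays centred on their bright probe sets and Itpr3 by -0.14 with cyclic loess, neither past the threshold. Of the 6 Itpr2 probe sets only the brightest was positive in 3D against tissue. The dimmer ones ran from -0.11 to -0.41, and 1 of them passed (-0.41, adjusted p = 0.0215). With the mean of all its probe sets Itpr2 differed by -0.21 in 3D (adjusted p = 0.112).

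The pumps changed in opposite directions. Atp2a2 codes for SERCA2, the pump of the store in most cells and of the heart. Its level was 12.33, 12.45, 12.34 and 12.33 in 3D cultures, 12.19, 12.20, 12.02 and 12.35 in 2D cultures and 11.12, 10.85, 9.97 and 11.17 in tissue. Every culture array stood above every tissue array, and tissue replicate 3 was the lowest. The mean was 12.36 ± 0.06 in 3D, 12.19 ± 0.13 in 2D and 10.78 ± 0.56 in tissue (SD, n = 4 each). Atp2a2 was 3.00-fold higher in 3D than in tissue (log2 difference 1.59, standard error 0.25, adjusted p = 0.00182 from limma) and 2.66-fold higher in 2D (1.41, standard error 0.26, adjusted p = 0.00735). Its probe sets did not all show this. A second bright one averaged 11.18 in 3D, 11.24 in 2D and 11.18 in tissue, with log2 differences of 0.00 (adjusted p = 0.995) and 0.06 (adjusted p = 0.904), while another, at 8.91, 8.39 and 7.40, differed by 1.51 (adjusted p = 1.47e-04) and 0.99 (adjusted p = 0.0207). Which transcripts each probe set reads was not tested.

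Atp2a3 codes for SERCA3, known from blood cells, endothelium and epithelia. Its level was 7.74, 7.65, 7.74 and 7.58 in 3D cultures, 7.58, 7.76, 7.68 and 7.59 in 2D cultures and 8.37, 8.86, 8.83 and 8.57 in tissue. The 8 culture arrays lay within a narrow band below all 4 tissue arrays, and tissue replicate 3 did not stand apart for this gene. The mean was 7.68 ± 0.08 in 3D, 7.65 ± 0.08 in 2D and 8.66 ± 0.23 in tissue (SD, n = 4 each). Atp2a3 was 1.97-fold lower in 3D than in tissue (log2 difference -0.98, standard error 0.15, adjusted p = 0.00129) and 2.01-fold lower in 2D (-1.01, standard error 0.16, adjusted p = 0.00333). Tissue replicates 2 and 3, whose values were drawn together, had the highest Atp2a3 levels. Without both, the differences were -0.79 in 3D (adjusted p = 5.14e-04) and -0.82 in 2D (adjusted p = 0.00671). With cyclic loess on all arrays they were -1.23 (adjusted p = 0.00122) and -1.24 (adjusted p = 0.00347). A second, dimmer probe set differed by -0.13 (adjusted p = 0.538) and -0.14 (adjusted p = 0.506). Endothelial markers were also lower in culture, 7 of 10 in 3D and 6 of 10 in 2D, with averages of 6.24 to 6.57 in 3D, 6.18 to 6.85 in 2D and 7.14 to 8.28 in tissue. Of 6 measured platelet and lymphocyte markers 1 was higher and 1 lower in 3D, and 0 passed in 2D. Their averages were 7.20 to 7.58 in 3D, 6.49 to 7.91 in 2D and 7.38 to 7.995 in tissue. Of 9 measured macrophage markers 2 were higher and 6 lower in 3D, and 1 was higher and 1 lower in 2D. Of all genes, 20.1% were higher and 15.5% lower in 3D against tissue, and 14.3% and 9.87% in 2D. The part of these cells in the Atp2a3 result was not tested.

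**Figure D3:**
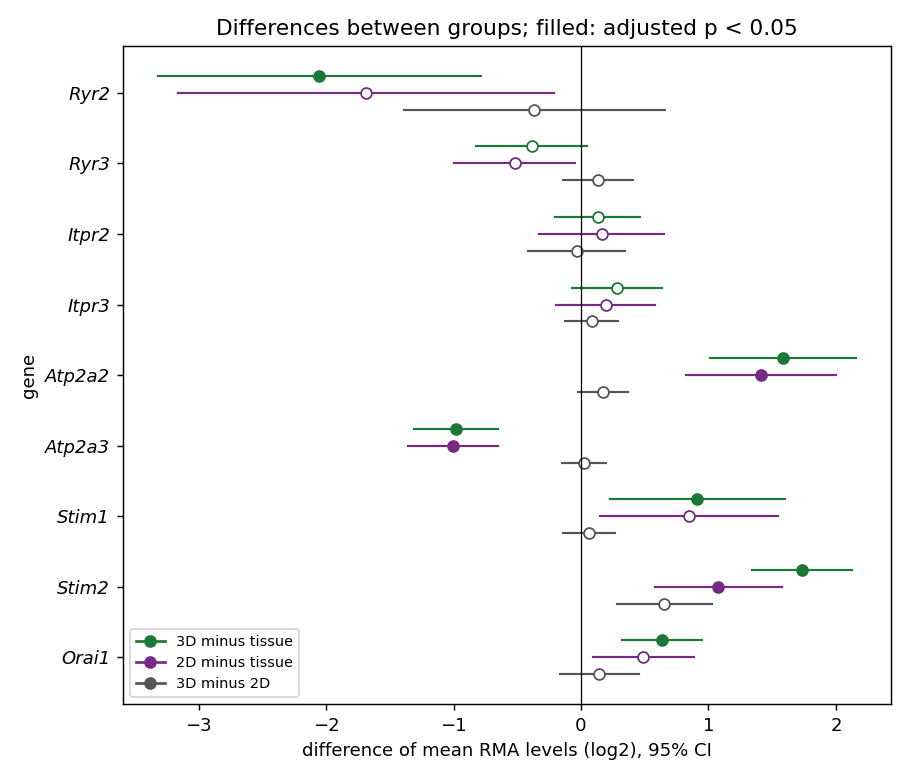
Log2 difference of the mean RMA level (horizontal axis) for the 9 measured genes (vertical axis) in 3D minus tissue, 2D minus tissue and 3D minus 2D. Points are estimates, bars are 95% confidence intervals from limma, and filled points have an adjusted p under 0.05. Atp2a2 and Stim2 are filled to the right and Atp2a3 to the left in both comparisons with tissue, and no point of 3D minus 2D is filled.

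The sensors and the pore of store-operated entry were higher in 3D cultures than in tissue, and Stim2 was higher in 2D cultures too. Stim2, the sensor that responds to small losses of store calcium and is prominent in neurons, read 11.16, 11.28, 11.07 and 11.39 in 3D cultures, 10.62, 10.62, 10.11 and 10.93 in 2D cultures and 9.84, 9.52, 9.09 and 9.52 in tissue. The 3 groups formed 3 steps without overlap, with 3D at the top and tissue at the bottom. The mean was 11.23 ± 0.14 in 3D, 10.57 ± 0.34 in 2D and 9.49 ± 0.31 in tissue (SD, n = 4 each). Stim2 was 3.32-fold higher in 3D than in tissue (log2 difference 1.73, standard error 0.17, adjusted p = 1.79e-04) and 2.11-fold higher in 2D (1.08, standard error 0.22, adjusted p = 0.0111). With cyclic loess the differences from tissue were 1.29 in 3D (adjusted p = 1.54e-04) and 0.64 in 2D (adjusted p = 0.0337). Stim2 was the only one of the 9 genes whose 3D and 2D arrays did not overlap, where 7.36% of all genes showed such a gap (4.49% with 3D above and 2.87% with 3D below). The difference of 3D from 2D was 0.66 (standard error 0.16, 95% confidence interval 0.28 to 1.03), or 1.58-fold, with an unadjusted p of 0.0034 and an adjusted p of 0.216 in limma, and so did not pass. A second, dimmer Stim2 probe set averaged 7.05 in 3D, 6.58 in 2D and 6.32 in tissue. It also showed a gap between 3D and 2D, of 0.47 in the means (adjusted p = 0.232), and passed in 3D against tissue with 0.73 (adjusted p = 0.0231) but not in 2D against tissue (0.26, adjusted p = 0.327).

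Stim1, the sensor that drives the main store-operated current of most cells, was at 8.46, 8.35, 8.23 and 8.26 in 3D cultures, 8.40, 8.16, 8.15 and 8.33 in 2D cultures and 7.79, 7.07, 6.63 and 8.16 in tissue. Tissue replicates 2 and 3 were far below the cultures, and tissue replicate 4 reached the lower edge of the 2D arrays. The mean was 8.33 ± 0.10 in 3D, 8.26 ± 0.12 in 2D and 7.41 ± 0.69 in tissue (SD, n = 4 each). The log2 difference was 0.91 in 3D against tissue (standard error 0.30, adjusted p = 0.0467), or 1.88-fold, and 0.85 in 2D against tissue (adjusted p = 0.0774). The call in 3D was lost without any 1 of the 3D arrays (adjusted p = 0.0880 to 0.109), without tissue replicate 2 (0.123) or 3 (0.0568), and without both of these the difference was 0.35 (adjusted p = 0.0598). In 2D it was gained without tissue replicate 4, with 1.10 (adjusted p = 0.0228). A second Stim1 probe set had the opposite sign, with -0.34 in 3D (adjusted p = 0.219) and -0.39 in 2D (adjusted p = 0.214).

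Orai1, the pore that STIM proteins open, was at 8.58, 8.66, 8.73 and 8.90 in 3D cultures, 8.61, 8.56, 8.24 and 8.88 in 2D cultures and 8.22, 7.96, 7.90 and 8.25 in tissue. All 3D arrays stood above the tissue arrays, and 1 of the 2D arrays, replicate 3, did not. The mean was 8.72 ± 0.14 in 3D, 8.57 ± 0.26 in 2D and 8.08 ± 0.18 in tissue (SD, n = 4 each). The log2 difference was 0.64 in 3D against tissue (standard error 0.14, adjusted p = 0.00882), or 1.55-fold, and 0.49 in 2D against tissue (standard error 0.18, adjusted p = 0.0732). With cyclic loess the difference in 3D was 0.31 (adjusted p = 0.0649) and with arrays centred on their bright probe sets 0.36 (adjusted p = 0.101). The second Orai1 probe set differed by -0.14 (adjusted p = 0.612) and -0.08 (adjusted p = 0.837).

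Across all 26 probe sets of the 9 genes, the readings of one gene often disagreed. Of the 10 further probe sets of genes called in 3D against tissue, 2 passed, both in the direction of the call. Of the 7 further probe sets of genes called in 2D against tissue, 1 passed. Both probe sets of Stim2 passed in 3D against tissue, 2 of 6 did for Atp2a2, and for Ryr2, Atp2a3, Stim1 and Orai1 the call rested on the brighter of 2.

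**Figure D4:**
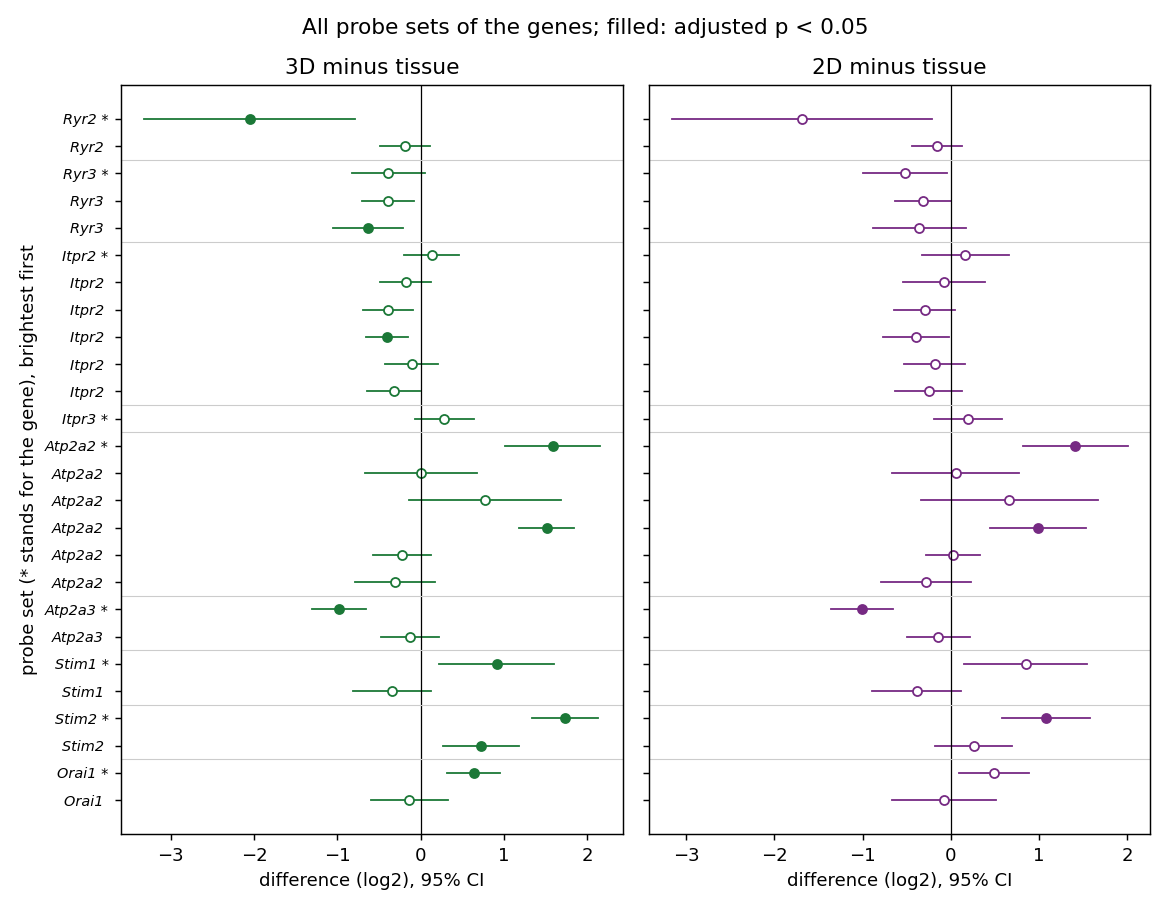
Log2 difference (horizontal axis) of all 26 probe sets of the 9 genes (vertical axis, brightest first within a gene, * the one that stood for the gene) in 3D minus tissue and 2D minus tissue. Bars are 95% confidence intervals from limma and filled points have an adjusted p under 0.05. The probe sets of Atp2a2 range from -0.31 to 1.59 in 3D minus tissue.

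Between the 2 kinds of culture, the intervals set a bound on each gene. The 95% confidence interval of 3D minus 2D stayed within 1 log2 unit on both sides for 7 of the 9 genes, the exceptions being Ryr2 (-1.39 to 0.66) and Stim2 (0.28 to 1.03). It was narrowest for Atp2a3, from -0.15 to 0.20, and ran from -0.02 to 0.37 for Atp2a2, -0.14 to 0.27 for Stim1 and -0.17 to 0.46 for Orai1. Ryr2 was highest in 3D on replicate 1 and lowest in 2D on replicate 4, which were also the arrays with the highest pan-neuronal average in 3D and the lowest in 2D. Without these arrays the pan-neuronal averages were 10.66 to 10.78 in 3D and 11.38 to 11.72 in 2D. The log2 difference was then -1.05 for Ryr2 and 0.80 for Stim2 (adjusted p = 0.0439). Removing these arrays makes both differences larger by construction. For Stim2, 2D replicate 4 was the highest 2D array (10.93) and 3D replicate 1 (11.16) lay under the 3D mean (11.23). The part of neuron content in these differences was not tested.

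The genes that act on these channels and pumps were described in 6 lists, each to be read beside the shares of all genes called, 20.1% higher and 15.5% lower in 3D against tissue and 14.3% higher and 9.87% lower in 2D against tissue. Of 24 regulators of store release, 6 were higher and 5 lower in 3D than in tissue (median -0.25), and 5 were higher and 3 lower in 2D (median -0.17). Itprip, which binds IP3 receptors and modulates their response to calcium, was higher by 1.99 in 3D (adjusted p = 4.50e-04) and 1.94 in 2D (adjusted p = 0.00402). The scaffold genes Homer1 and Homer3, whose products link glutamate receptors to IP3 receptors, were higher by 1.12 and 1.54 in 3D (adjusted p = 4.95e-04 and 5.66e-04) and by 0.94 and 1.42 in 2D (adjusted p = 0.00472 and 0.00703). Homer2, of the same family, was lower, with -1.72 in 3D (adjusted p = 0.0119) and -1.61 in 2D (adjusted p = 0.0264). Srl, which codes for the store protein sarcalumenin of muscle, differed by -1.82 in 3D (adjusted p = 3.53e-04) and -1.55 in 2D (adjusted p = 0.00244). Its levels on tissue replicates 1 to 4 were 7.57, 8.28, 8.36 and 8.31, all above the cultures (6.04 to 6.81). Replicate 1, with few muscle transcripts, was the lowest of these. The part of muscle RNA in Srl was not tested. Leaving out 2D replicate 1, 2 or 4 or tissue replicate 2 brought the 8 genes called in 2D down to 5. Lower genes outnumbered higher ones after centring, at 8 against 5 in 3D and 6 against 4 in 2D.

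Of 8 measured genes of store-operated entry 3 passed in 3D, where 35.6% of all genes did. Among them 1 was higher in 3D than in tissue, the Orai1 paralog Orai3 (0.51, adjusted p = 0.0417), and 2 were lower, the calcium-binding regulator Cracr2b (-0.44, adjusted p = 0.0260) and the cation channel Trpc1 (-0.55, adjusted p = 0.0320). Without any 1 of the 3D arrays the number called was 0 or 1, and with centring or loess 0 were higher and 2 lower. In 2D against tissue 0 of the 8 passed in limma, where 2 did at an unadjusted p under 0.05 and 1 in the methods' t-test. Of all genes, 24.1% passed and 40.9% reached the unadjusted level in limma. Of 4 measured SERCA regulators, Pln, the phospholamban that holds SERCA2 back in the heart, differed by -0.42 in 3D (adjusted p = 0.0263) and by -0.42 in 2D (adjusted p = 0.0519), and the other 3 did not pass in either. The Pln call in 3D was lost without any 1 of the 3D arrays.

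The remaining store channels and pumps included 2 forms of skeletal muscle. Atp2a1, the SERCA1 of fast muscle fibres, was at 6.30 to 6.62 in the cultures and at 6.61, 9.68, 8.23 and 10.23 on tissue replicates 1 to 4. Its log2 difference was -2.19 in 3D (adjusted p = 0.0348) and -2.31 in 2D (adjusted p = 0.0393). Ryr1, the ryanodine receptor of skeletal muscle, was at 4.27 to 4.92 in the cultures and at 4.45, 5.82, 5.85 and 6.38 in tissue, and did not pass (-1.07, adjusted p = 0.0554, and -1.04, adjusted p = 0.0679). On tissue replicate 1, where the muscle markers were near the cultures, both lay within the range of the cultures, whereas Ryr2 (9.43) and Atp2a3 (8.37) did not. This is a reading of 1 array, and the part of muscle RNA in these genes was not tested. The 2-pore channels of acid stores differed in sign, with Tpcn2 at 0.44 (adjusted p = 0.0204) and Tpcn1 at -0.66 (adjusted p = 0.0401) in 3D against tissue, and neither passed in 2D. In all, 1 of 8 genes was higher and 2 lower in 3D, where 35.6% of all genes passed, and 0 were higher and 1 lower in 2D, where 24.1% did. These counts were fragile, with 0 called in 3D without 3D replicate 1, 2 or 4 and 6 without tissue replicate 1, and in 2D 0 called without any 1 of the 2D arrays or tissue replicate 2 or 4 and 2 without tissue replicate 1.

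Of 18 genes that make or remove IP3, 4 were higher and 3 lower in 3D than in tissue (median -0.08), and 3 higher and 2 lower in 2D (median -0.04), near the 35.6% and 24.1% of all genes called. Plcb4, a phospholipase C driven by G proteins, was at 9.05 to 9.36 in 3D, 8.74 to 9.96 in 2D and 11.46 to 12.46 in tissue. The gap was wide in both cultures, with log2 differences of -2.60 (adjusted p = 7.57e-05) and -2.29 (adjusted p = 0.00186). Plce1, a phospholipase C controlled by Ras, differed by -1.32 in 3D (adjusted p = 0.00526) and -0.85 in 2D (adjusted p = 0.112). The IP3 kinase Itpkc and the inositol kinase Itpk1 were higher by 0.84 and 0.94 in 3D (adjusted p = 0.00599 and 0.00553) and by 0.92 and 0.64 in 2D (adjusted p = 0.0114 and 0.0423). Leaving out 2D replicate 2, 3 or 4 or tissue replicate 2 brought the 5 genes called in 2D down to 2, and leaving out tissue replicate 1 brought them to 3. With cyclic loess 5 were higher and 6 lower in 3D.

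The genes for proteins that hold calcium or fold proteins inside the store had the largest median difference of these 6 lists, relative to tissue. Of 16 such genes, 11 were higher and 2 lower in 3D than in tissue (median 1.10), and 10 higher and 2 lower in 2D (median 1.13), where 20.1% and 14.3% of all genes were higher and 15.5% and 9.87% lower. Calu, which codes for calumenin, was higher by 2.27 in 3D (adjusted p = 8.88e-04) and 2.14 in 2D (adjusted p = 0.00296). The disulfide isomerase genes Pdia4 and Erp44 were higher by 2.14 and 2.60 in 3D (adjusted p = 0.00144 and 0.00608) and by 1.96 and 2.48 in 2D (adjusted p = 0.0125 and 0.01495). The 2 genes that went the other way were the calsequestrins, which buffer calcium in muscle stores. Casq2, the cardiac form, was at 6.30 to 6.49 in 3D, 6.32 to 6.88 in 2D and 8.91, 8.36, 8.69 and 9.16 in tissue, so that tissue replicate 1 was as high as the rest. Its difference was -2.35 in 3D (adjusted p = 4.09e-05) and -2.13 in 2D (adjusted p = 4.00e-04). Casq1, the skeletal form, was at 7.03, 9.95, 9.31 and 8.78 on tissue replicates 1 to 4. The muscle markers averaged 5.59, 8.52, 7.14 and 8.90 on the same arrays. Both were lowest on replicate 1, but Casq1 was not highest on replicate 4, where the markers were. The part of muscle RNA in the calsequestrins was not tested. The count in 2D was 7 of 16 without tissue replicates 2 and 3, 5 without replicate 2 alone and 7 without 2D replicate 1, 2 or 4. With centring or loess the counts were 11 higher and 2 lower in 3D and 8 higher and 2 lower in 2D. Between 3D and 2D 0 of the 78 genes of these lists passed in limma, where 5 did at an unadjusted p under 0.05 and 7 in the methods' t-test. Of all genes, 0.0165% passed and 13.1% reached the unadjusted level in limma.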

How the data were processed

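Total RNA of 12 samples was hybridised to Affymetrix mouse arrays. The authors deposited log2 values made with RMA in Expression Console (background adjustment, quantile normalization, summarization), of which the version was not stated. No scanner file or scan date was used, so batches were not tested. Of 45101 probe sets, 64 controls were left out. Of 45037 tested, 34945 have 1 gene symbol in the platform annotation, 932 have several and 9160 are unnamed here. The probe set of highest mean stood for each of 18193 genes.

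Pairs of groups were compared on 8 arrays by limma 3.58.1 (lmFit, then eBayes, with statmod 1.5.0, under R 4.3.3). P-values were adjusted by Benjamini and Hochberg over the 45037 probe sets, and the threshold was 0.05. The number of arrays limits the precision, with a median residual SD of 0.29 in 3D against tissue, 0.33 in 2D against tissue and 0.17 in 3D against 2D. P-values set each difference of means against the spread between biological replicates within the groups. On simulated data the test called 35%, 23% and 74% of the genes given a 2-fold change in the same 3 comparisons. That simulation left 17993 of the 18193 genes unchanged, whereas 35.6%, 24.1% and 0.0165% of all genes passed in the data. The adjusted threshold depends on how many genes change, so the simulated shares do not give the power of the test here. Array pairs were checked for identity (0 pairs). The genes, lists and tests were chosen with earlier results of these data known. Named from each list were at most 4 genes, those of smallest adjusted p, with Ryr1 and Atp2a1. Casq1 was named after its values were seen. Homer2 (adjusted p = 0.0119 from limma in 3D against tissue) was named beside its family and outside this rule. Itpripl2, Tmem38b and Cherp of its list, all higher in 3D than in tissue, had smaller values there (0.00241, 0.00402 and 0.0101). Of each marker list at most 2 genes of highest mean were named. Among the genes called in both cultures against tissue, the 3 genes of most similar profile were found for the one highest and the one lowest in the mean of the 2 differences. Promoters came from RefSeq (GRCm38.p6). Alternatives covered the fit, weights, prior, filter, scaling, block, probe set, the methods' t-test, fold size and left-out arrays; those for the gene lists were chosen after seeing the data.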

Additional observations from a re-analysis of the deposited data

Results flagged for a closer look

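Of 27 groups of 4 arrays tested for an outlying array, 3 had one, where chance gives about 1 in 20. Ryr2 in tissue replicate 3 was at 6.96, and the gap to the next tissue array was 0.935 of the range of the group. Itpr3 in 3D replicate 1 was at 9.64, with a gap of 0.889 of the range, which spanned 9.64 to 9.82. Atp2a2 in 3D replicate 2 was at 12.45, with a gap of 0.917 of the range, which spanned 12.33 to 12.45.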

How the results depend on the processing

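Of 585 values of single genes under the alternatives run, 540 kept their side of the threshold and, where called, their direction, 25 lost a call, 19 gained one and 1 gained one with the opposite sign. That one was Itpr2 in 3D against tissue, at -0.41 with the probe set of highest SD (adjusted p = 0.0215). Differences that were not called, such as those of Itpr2 and Itpr3, changed sign in some settings. In 3D against tissue 3 of the 6 genes were called at a minimum of 2-fold, and 4 to 6 with 1 array left out. In 2D against tissue, where 3 were called, 7 were with 1 fit of all 12 arrays, 5 with array weights, 5 in the methods' t-test without adjustment, 1 with tissue replicate 1 alone (Atp2a2, with the lone array assumed to vary like the cultures), and 3 to 4 with 1 array left out. Between 3D and 2D, where 0 were called, 1 was with array weights (Stim2, adjusted p = 0.0389) and 1 in the methods' t-test without adjustment (Stim2). Without 2D replicate 4 and 3D replicate 1 together 2 were called, Stim2 and Ryr2. Removing these arrays makes both differences larger by construction. Leaving out 1 array gave 0 to 0. The cause of these changes was not tested. With the mean of all probe sets of a gene, Atp2a2 in 2D against tissue (0.48, adjusted p = 0.0774), Stim1 in 3D (0.29, 0.0810) and Orai1 in 3D (0.25, 0.128) lost their calls. In the same setting Ryr3 gained one in both cultures, with -0.47 in 3D (adjusted p = 0.00798) and -0.40 in 2D (0.0430). With tissue replicate 1 alone, Stim2 (0.73, adjusted p = 0.233) and Atp2a3 (-0.72, 0.0621) lost theirs in 2D. With the replicate block the counts were 6, 3 and 0, and the calls of SERCA regulators went to 0 in 3D and those of entry partners to 1 in 2D. In each comparison 2 of 4 same-numbered pairs correlated above 0.1, and replicate 1 of one group matched replicate 1 of the other best. Whether same-numbered replicates share a preparation was not tested. Centring arrays on bright probe sets moved the median of all genes against tissue to -0.31 and the share of higher genes among those called to 39.4% in 3D and 38.4% in 2D, against 56.5% and 59.1% as deposited and 47.7% each with cyclic loess. Stim1 (0.64, adjusted p = 0.0567, centred; 0.66, 0.0538, loess) then lost its call in 3D, and Ryr2 gained one in 2D when centred (-1.97, 0.0253). Probe sets near background have no detection call, so their differences are estimates.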

Other observations

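Over the 12 arrays, the genes whose centred profile lay closest to that of Atp2a2 were Pabpc1, a binding protein of messenger RNA tails (root mean square distance 0.101 on the log2 scale), Asxl2, a chromatin regulator (0.108), and Asah1, the acid ceramidase (0.112). Their mean levels were 13.62, 8.78 and 11.29 in 3D, 13.46, 8.56 and 11.16 in 2D and 12.16, 7.12 and 9.85 in tissue. Closest to Atp2a3 were Slco1a4, a transporter of organic anions (0.0853), Oprk1, the kappa opioid receptor (0.0878), and Tbx22, a T-box transcription factor (0.101). Slco1a4 averaged 6.57 in 3D, 6.55 in 2D and 7.50 in tissue, and Oprk1 averaged 6.90 in 3D, 6.85 in 2D and 7.90 in tissue. Tbx22 averaged 3.81 in 3D, 3.84 in 2D and 4.80 in tissue, at the lower end of the scale.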
